A study of Mus musculus with 4 samples.

Results

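Gzmk-positive CD8 T cells were chosen by their measured counts of Gzmk, as the CD8 T cells of 4 single-cell libraries in which 1 or more Gzmk molecules were captured, each counted by its unique molecular identifier (UMI). CD8 T cells were barcodes without Cd4 in which Cd3d, Cd3e or Cd3g and also Cd8b1 or Cd8a were detected. The rule found 476 Gzmk-positive cells among 1184 CD8 T cells and 4801 cell barcodes in all. They were compared with the 418 CD8 T cells of the same libraries that held no UMI of Gzmk and none of Ccr7, a homing receptor of naive T cells. CD4 and CD8 T cells had been sorted by flow cytometry from choroid plexus and meninges of C57BL/6 mice, all female and either young (10 weeks) or aged (18 months), and each library pooled the cells of 5 mice. There was 1 library per age and tissue, and it is not stated whether both tissues came from the same animals. Wherever 4 values stand together, the young meninges come first, then the choroid plexus of young mice, then the meninges of aged mice, and last the aged choroid plexus. The Gzmk-positive cells were not filtered on Ccr7, and 7, 4, 4 and 13 of them held a Ccr7 UMI. The libraries held 3737140, 2295950, 4262917 and 3957717 UMIs, and 8 of 4793 distinct barcodes occurred in more than 1 library, 1 of them on a Gzmk-positive cell.

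Gzmk encodes granzyme K, a trypsin-like serine protease that cytotoxic lymphocytes store in granules together with granzymes A and B and the pore-forming protein perforin. Unlike granzyme B, granzyme K is typical of memory CD8 T cells that express the T-box factor Eomes and the chemokine Ccl5, and such cells are well known from aged tissues. The meninges and the choroid plexus, which makes cerebrospinal fluid, are borders of the brain where T cells can reside.

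Gzmk (ENSMUSG00000042385) lies on the minus strand at chr13:113171608-113225908 of GRCm38, near Gzma (ENSMUSG00000023132, chr13:113093825-113100981, minus strand). The 2 promoters are shown because Gzmk set the gate, which fixed its pattern, and Gzma is a granzyme gene of the same region. Each runs from 250 bases before to 50 bases after the RefSeq gene start, from the GRCm38.p6 RefSeq table, on the strand of the gene. The GENCODE span of Gzmk given above reaches farther upstream than the RefSeq start. Capitals mark matches on either strand to TCACAC (a T-box half-site), TGTGGT (a RUNX motif) or GGGTGG (a KLF motif).
Gzmk, chr13:113180916-113181215: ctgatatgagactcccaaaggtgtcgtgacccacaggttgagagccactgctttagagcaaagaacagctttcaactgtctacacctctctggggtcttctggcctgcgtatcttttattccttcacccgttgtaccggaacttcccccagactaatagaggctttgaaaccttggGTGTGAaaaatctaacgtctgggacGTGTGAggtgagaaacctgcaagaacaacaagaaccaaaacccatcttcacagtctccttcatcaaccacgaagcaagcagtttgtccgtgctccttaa
Gzma, chr13:113100932-113101231: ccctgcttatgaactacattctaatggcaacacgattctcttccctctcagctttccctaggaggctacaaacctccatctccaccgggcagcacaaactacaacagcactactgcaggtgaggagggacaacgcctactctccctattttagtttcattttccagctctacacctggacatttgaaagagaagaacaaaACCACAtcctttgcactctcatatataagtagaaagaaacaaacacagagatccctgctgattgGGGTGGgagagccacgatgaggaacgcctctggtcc
The Gzmk window held 2 T-box matches and no match to the other motifs. The Gzma window held 1 RUNX and 1 KLF match and no T-box match. Of 27025 RefSeq promoters of this length, 14.4% held the T-box letters, 16.9% the RUNX letters and 30.9% the KLF letters. These matches describe the letters only.

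The Gzmk-positive cells numbered 33, 26, 168 and 249. They made up 12.7% (95% Clopper-Pearson interval 8.90 to 17.4), 15.6% (10.4 to 22.0), 59.8% (53.8 to 65.6) and 52.3% (47.7 to 56.9) of the CD8 T cells of each library. Both aged libraries lay above both young libraries, and the aged and young intervals did not overlap. These intervals, like all others given here, cover counting error only and not the variation between mice. Since aged CD8 T cells held fewer cells with a Ccr7 UMI, the share was also taken of the CD8 T cells without one, where it was 28.6, 25, 64.1 and 54.8%. When each cell was thinned to 1000 UMIs, the share of all CD8 T cells was 5.38, 6.10, 37.6 and 25.8%, in which the aged meninges lay above the aged choroid plexus. The rule used Gzmk, so these shares are a description.

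**Figure D1:**
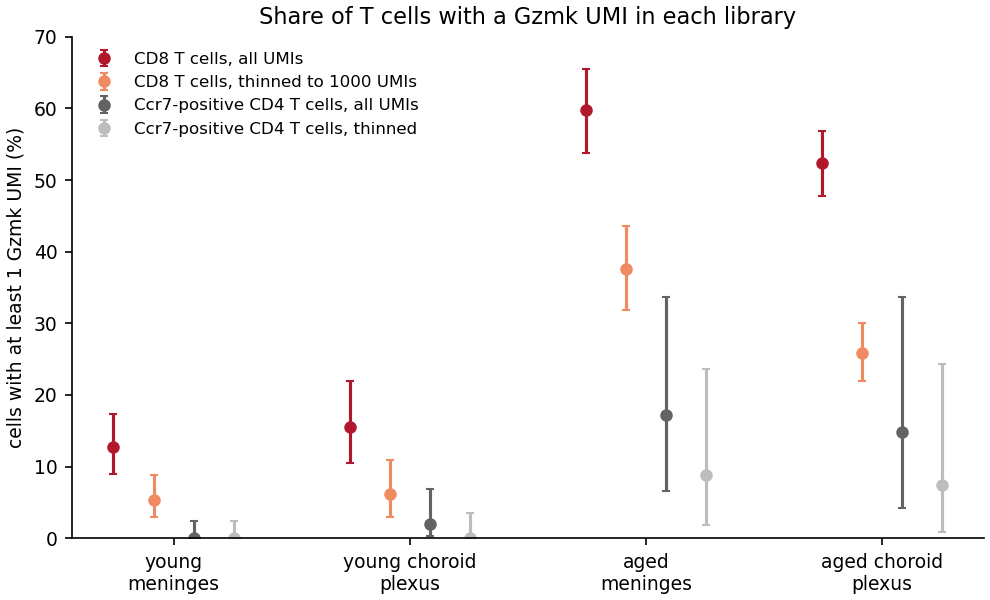
Share of cells with a Gzmk UMI (y axis, %) in the 4 libraries (x axis) among CD8 T cells and among Ccr7-positive CD4 T cells, before and after thinning to 1000 UMIs per cell. Points are the shares and bars their 95% Clopper-Pearson intervals, and the CD8 T cell share was 59.8 and 52.3% in the aged libraries against 12.7 and 15.6% in the young ones.

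Free RNA can place a UMI in a cell that does not express the gene, so the share with a Gzmk UMI was measured in Ccr7-positive CD4 T cells, taken as cells that should lack granzymes. It was 0 of 149 cells, which allows a share of up to 2.01% (3 of 149 cells), in the young meninges, and 1.94% of 103 cells in the young choroid plexus. In the aged meninges it was 17.1% of 35 cells and in the aged choroid plexus 14.8% of 27 cells. The CD8 share exceeded it in every library, by the least in the young ones in percentage points. A Lef1 UMI was found in 73.2, 80.6, 20 and 22.2% of these CD4 T cells, so few of the aged ones showed this second naive marker. Their aged shares were close to those of all CD4 T cells (17.4 and 16.9%), and free RNA and expression of Gzmk in aged CD4 T cells were not separated. Among passing cells without a Cd3 UMI, 0 of 12, 4, 28 and 7 held a Gzmk UMI, at lower median depths of 1157, 825.5, 1480 and 1212 UMIs. The 28 cells of the aged meninges allow a share of up to 10.7%. The median depths of these CD4 T cells were 3229, 2913, 2632 and 3135 UMIs, and those of the Gzmk-positive cells 3733, 4124, 2797 and 3128 UMIs.

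Most Gzmk-positive cells carried few copies. Exactly 1 Gzmk UMI was found in 17, 13, 55 and 110 cells, 41.0% of all members, and 3 or more in 159 cells. The highest count in a cell was 44 in the young meninges and 7, 14 and 11 in the other libraries. Within the Gzmk-positive cells the summed level was 609, 403, 865 and 624 Gzmk UMIs scaled to a total of 1000000 UMIs (CPM). The cells just inside the threshold were compared once with those just outside, without a test. Klf2 stood at 937, 472, 576 and 123 CPM in cells with 0 Gzmk UMIs and at 400, 118, 192 and 134 CPM in cells with 1, so that the aged choroid plexus was the exception to a lower level inside. Tigit stood at 26.3, 41.4, 125 and 77.1 CPM with 0 and at 118, 138, 113 and 134 CPM with 1, the aged meninges being the exception to a higher level inside.

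The label was checked against genes that the rule did not use. Ccl5, a chemokine of memory and effector CD8 T cells, had a UMI in 100, 100, 99.4 and 99.2% of Gzmk-positive cells, against 36.9, 57.6, 87.0 and 91.3% of the Gzmk-negative cells. Nkg7, a membrane protein of cytotoxic granules, was found in 97.0, 100, 99.4 and 98.8% against 60.0, 75.8, 85.9 and 90.3%. After thinning, the order of the gates was the same for both genes in every library: Ccl5 was in 97.0, 96.2, 98.2 and 96.3% against 33.8, 50.8, 83.0 and 89.0% of cells. Eomes was found in fewer cells, 21.2, 34.6, 28.0 and 27.3% of the Gzmk-positive cells and 7.69, 9.09, 17.4 and 11.3% of the Gzmk-negative cells. In the Ccr7-positive CD4 T cells Ccl5 had a UMI in 6.71, 5.83, 28.6 and 18.5% and Nkg7 in 3.36, 6.80, 17.1 and 22.2% of cells. In Ccr7-positive Gzmk-negative CD8 T cells Ccl5 was in 16.7, 22.7, 66.7 and 59.4% and Nkg7 in 74.7, 64.0, 95.2 and 75.0% of cells. Before thinning, Ccl5 was thus found in most CD8 T cells of the aged libraries with or without Gzmk, and Nkg7 in most CD8 T cells of all libraries. After thinning, Nkg7 was in 87.9, 76.9, 93.9 and 84.1% of Gzmk-positive and 35.4, 55.6, 75.0 and 74.3% of Gzmk-negative cells. In Ccr7-positive Gzmk-negative CD8 T cells it was then in 30.2, 36.0, 52.4 and 43.8%. Both genes set the Gzmk-positive cells apart by degree. The name CD8 T cell rests on the gate.

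Markers of other cell types were counted in both gates. The defining B cell gene Cd79a was at 0 in all libraries and gates, and Ighm, the immunoglobulin M heavy chain gene, led that list. The sum of the list was 223, 65.8, 26.4 and 65.1 CPM in Gzmk-positive and 197, 170, 132 and 97.1 CPM in Gzmk-negative cells. Neutrophil markers were at 0 in every library and gate, and fibroblast markers in all but the Gzmk-positive cells of the aged choroid plexus, at 2.13 CPM. Macrophage markers reached 7.54 CPM in Gzmk-positive and 30.7 CPM in Gzmk-negative cells, with Lyz2 and Csf1r at 0 throughout, and of the endothelial markers Pecam1 alone was seen. The choroid plexus epithelium markers, led by Ttr, reached 455 CPM in the Gzmk-negative cells of the young choroid plexus, in 3.03% of cells, and at most 12.8 CPM elsewhere. Of the natural killer cell markers Ncr1, Klra8, Klrb1c, Tyrobp and Fcer1g, the sum was 0, 16.5, 1.89 and 2.13 CPM in Gzmk-positive cells, with Ncr1 at 0 throughout. In the Gzmk-negative cells the sum was 158, 406, 14.7 and 58.6 CPM, led by Fcer1g in all but the aged meninges, and 9.23, 10.6, 2.17 and 6.67% of cells held such a UMI. The regulatory and helper T cell markers summed to 16.8, 0, 134 and 72.5 CPM in Gzmk-positive and 96.4, 33.1, 290 and 213 CPM in Gzmk-negative cells, led by Tnfrsf4 in the aged libraries. Haemoglobin UMIs stood at 479 CPM in Gzmk-positive and 543 CPM in Gzmk-negative cells of the aged meninges and at most at 17.5 CPM elsewhere. Lef1, a factor of naive T cells, had a UMI in 36.4, 11.5, 17.9 and 15.7% of Gzmk-positive cells and in 63.1, 51.5, 16.3 and 12.3% of Gzmk-negative cells, so the young comparison cells held more cells with a naive marker than the aged ones did. The part of these markers in the results that follow was not tested, except where counts without the marker-bearing cells are given. Gzmk-positive cells were also deeper than Gzmk-negative cells in each library, with medians of 3733, 4124, 2797 and 3128 against 3223, 3295, 2492 and 2937 UMIs.

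The main comparison asked which other genes differed between Gzmk-positive and Gzmk-negative Ccr7-negative CD8 T cells of the same library. UMIs were summed per library and gate, which gave 179077, 121575, 530477 and 937689 UMIs for the Gzmk-positive and 228321, 241656, 272572 and 648665 UMIs for the Gzmk-negative cells. The sums were tested with edgeR's quasi-likelihood test with the library as a block, over 3203 genes. Of these, 41 genes (1.28%) passed an adjusted p of 0.05, 20 higher (0.624%) and 21 lower (0.656%) in Gzmk-positive cells. Several genes of cell division, Eomes, Sh2d1a, Tigit, Il10ra and Itgb1 were higher, and Klf2, S1pr1, Satb1, Il7r, Gzma and several immediate early genes were lower. The sign was the same in all 4 libraries for 35 of the 41 genes, and for 20.3% of all genes tested. The test favours genes whose gate difference is alike in these same libraries, so this describes the calls and is no separate support. Over all genes tested 1541 estimates were positive and 1662 negative, and the median log2 ratios of the 4 libraries were 0.15, 0.14, 0.03 and -0.0044. The 41 calls depended on the model and on depth. None was made when cells were thinned to 1000 UMIs before summing (19 of the 41 genes could be tested, all with the same sign), when gates were set after thinning (34 of 37 with the same sign) or without the library block (41 of 41). In these 3 edgeR fits 64, 257 and 212 of all genes tested had an unadjusted p under 0.05. DESeq2 called 2 of the 41 genes (Klf2 and Il7r), though all 41 had the same sign there and 39 had an unadjusted p under 0.05. Without cells holding a Ccr7 or Lef1 UMI in either gate, 2 remained of the 29 still tested (Klf2 and Gzma), and all 29 kept their sign. Without cells holding a natural killer marker UMI 11 of the 41 were called. Leaving out 1 meningeal library left 30 (the young one) and 11 (the aged one) of the 41 calls. Leaving out 1 choroid plexus library left 10 (the young one) and 34 (the aged one). In all 4 of these fits 7 genes were called, namely Sh2d1a, Klf2, Satb1, Rgcc, Ramp1, Ier2 and Hist1h2ap.

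**Figure D2:**
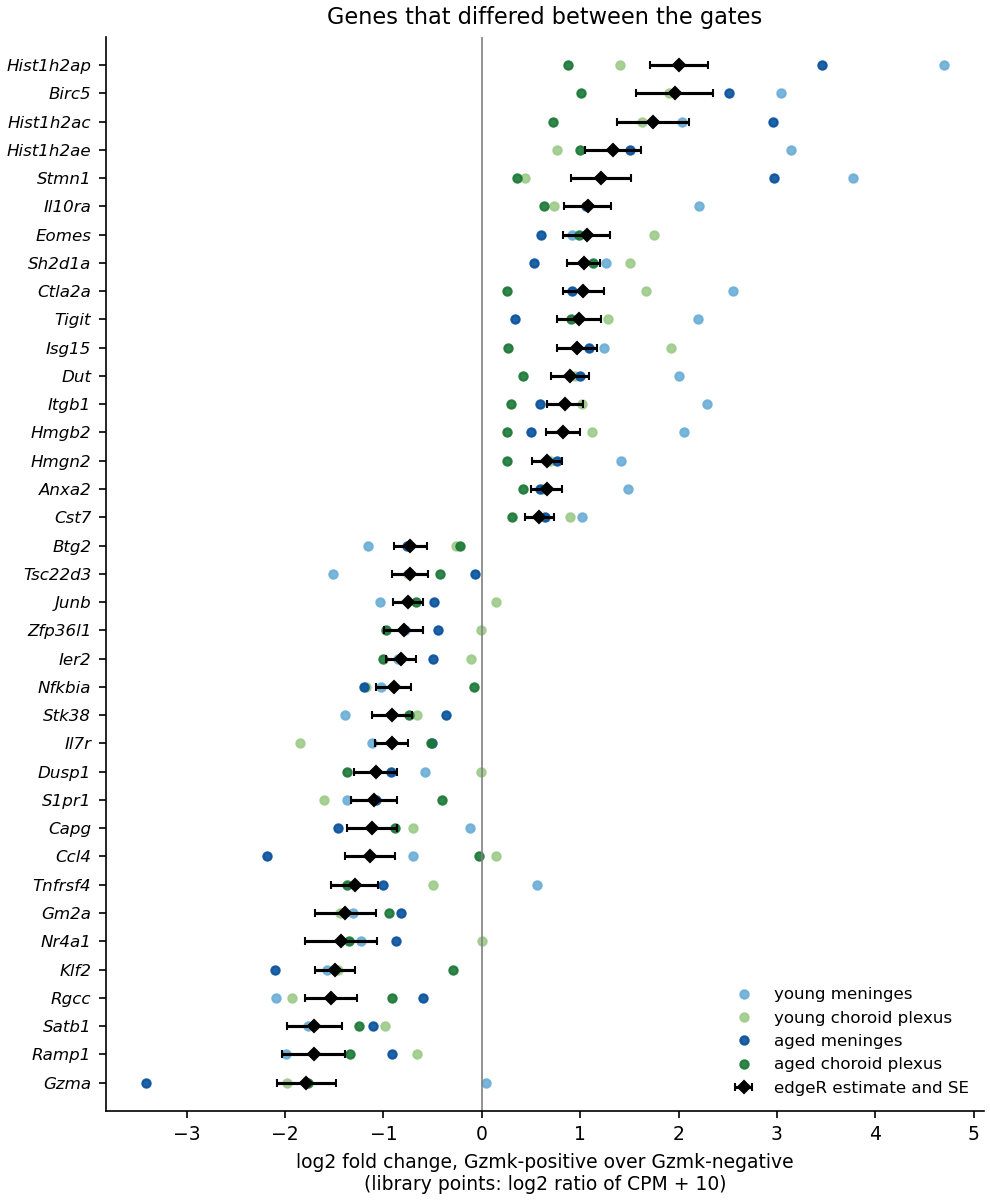
Log2 fold change of Gzmk-positive over Gzmk-negative cells (x axis) for 37 of the 41 genes that passed (y axis). Diamonds with bars are the edgeR estimates and their standard errors, and coloured points are the ratios in each library, which scatter most for Hist1h2ap and Gzma.

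Among transcription factors, Eomes (chr9:118478212-118486132 of GRCm38, plus strand), which sustains memory CD8 T cells, was higher in Gzmk-positive cells. It stood at 50.3, 107, 111 and 98.1 CPM against 21.9, 24.8, 69.7 and 44.7 CPM. It was higher in 4 of 4 libraries, by a log2 fold change of 1.07 (SE 0.24, edgeR adjusted p = 0.0145). The gates overlapped only in that Gzmk-positive cells of the young meninges lay below Gzmk-negative cells of the aged meninges. The call was made in 6 of 15 alternative fits. It was lost without the young choroid plexus (adjusted p = 0.133), without the aged meninges (0.0756) and without the aged choroid plexus (0.126), with log2 fold changes of 0.96, 1.27 and 1.03. Its relative Tbx21, the T-box factor of effector cells, was at 22.3, 16.5, 50.9 and 35.2 CPM against 48.2, 29.0, 69.7 and 50.9 CPM, lower in 4 of 4 libraries with a log2 fold change of -0.63 (SE 0.28) that did not pass (adjusted p = 0.400). Tox, a factor tied to chronic stimulation, had a log2 fold change of 0.89 (SE 0.25) and was higher in 3 of 4 libraries, but did not pass (adjusted p = 0.0805). Of 17 effector transcription factors listed, 11 were tested, and Eomes alone passed, beside 0.624% of all genes that were higher. Their median log2 fold change was 0.25, against -0.01 over all genes tested.

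Klf2 (chr8:72319033-72321656 of GRCm38, plus strand), a factor that keeps T cells quiescent and circulating, fell in Gzmk-positive cells. It stood at 307, 165, 126 and 99.2 CPM against 937, 472, 576 and 123 CPM, lower in 4 of 4 libraries. The log2 fold change was -1.49 (SE 0.20, edgeR adjusted p = 0.000163), and the call was made in 13 of 16 alternative fits, more than for any other of the 41 genes. The gap was smallest in the aged choroid plexus, where the Gzmk-negative cells were also low. S1pr1, the sphingosine-1-phosphate receptor through which T cells leave tissues and a known target of Klf2, was at 61.4, 32.9, 47.1 and 51.2 CPM against 175, 120, 110 and 70.9 CPM. Its gates did not overlap, and it fell by 1.09 on the log2 scale (SE 0.23, adjusted p = 0.0115). Klf3 was lower in 4 of 4 libraries by -0.86 (SE 0.24) and did not pass (adjusted p = 0.0852).

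**Figure D3:**
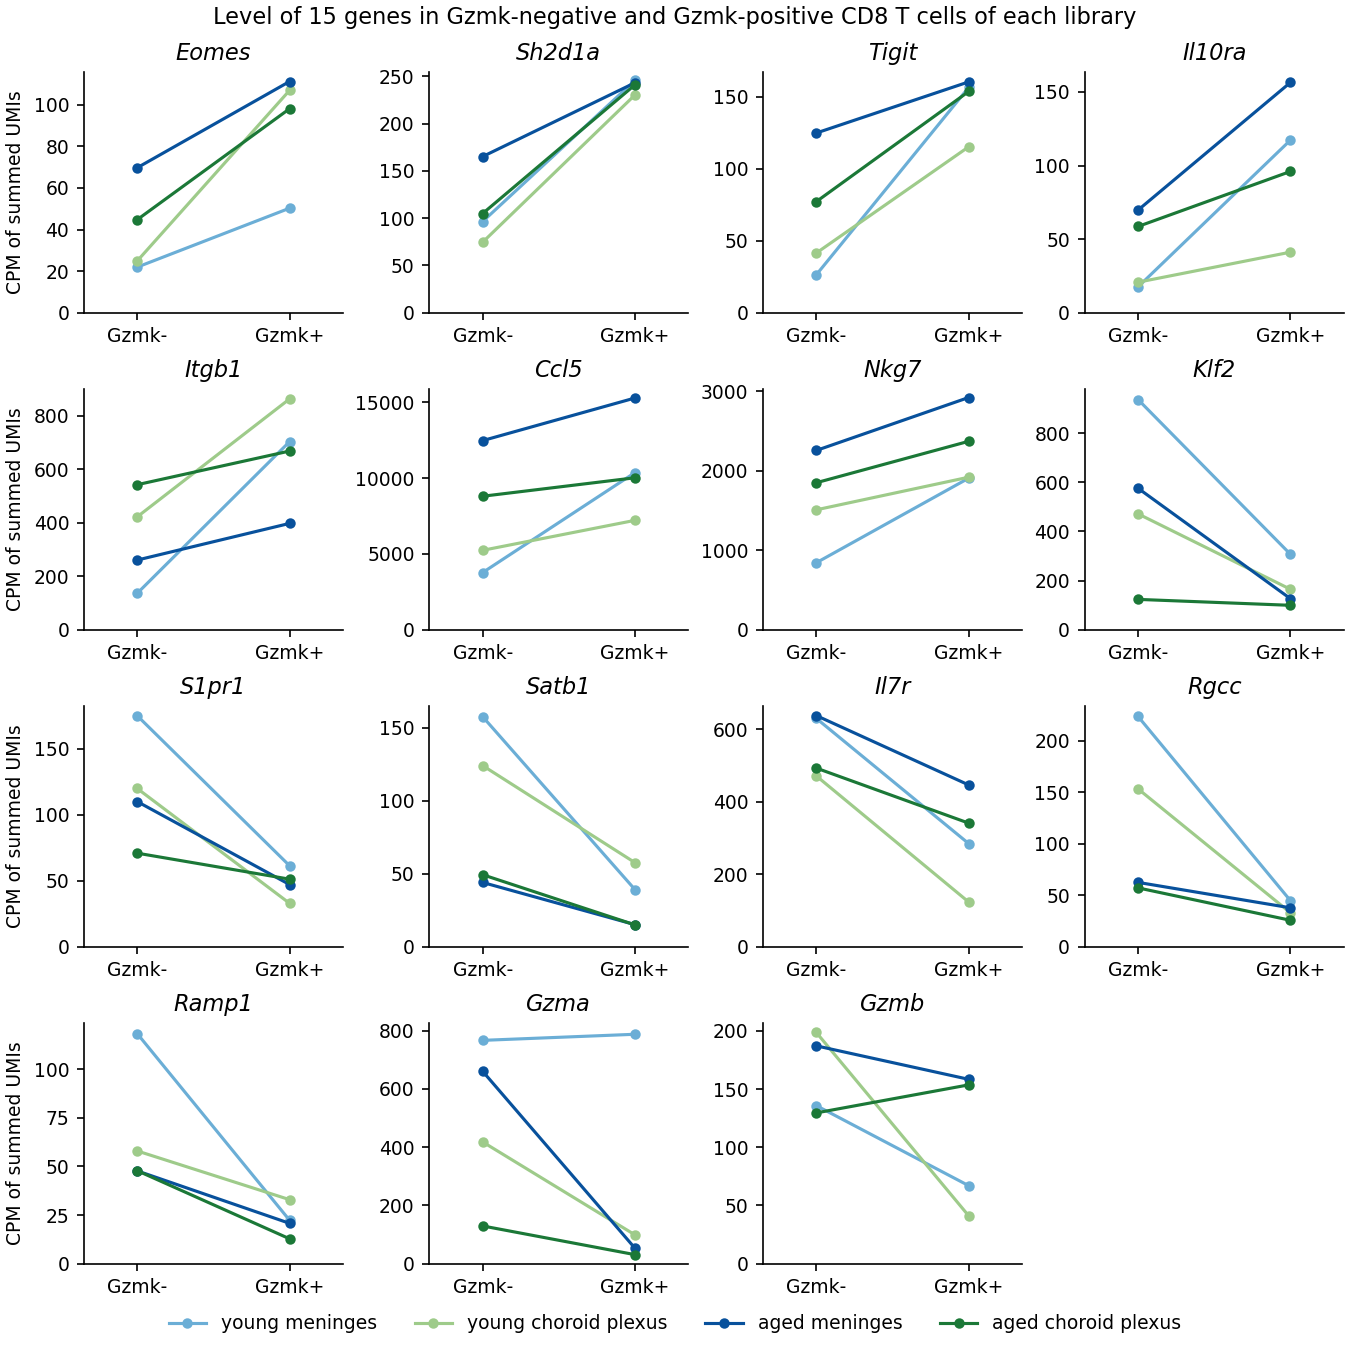
CPM of summed UMIs (y axes, each from 0) of 15 genes in Gzmk-negative and Gzmk-positive cells (x axes), with a line for each library. Sh2d1a, S1pr1 and Satb1 lines all run one way, whereas Gzma was level in the young meninges (766 and 787 CPM).

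Genes of naive and stem-like T cells had mostly negative estimates. Of 15 listed, 8 were tested, 2 fell, none rose, and 7 of 8 estimates were negative with a median of -0.44, where 0.656% of all genes tested fell and 1662 of 3203 estimates were negative. By library the list's median log2 ratio was -0.96, -1.42, -0.47 and 0.06, so that the aged choroid plexus did not have the direction of the others. Satb1, a chromatin organiser of early T cells, was at 39.1, 57.6, 15.1 and 14.9 CPM against 158, 124, 44.0 and 49.3 CPM, and fell by 1.70 on the log2 scale (SE 0.28, edgeR adjusted p = 0.00151). Il7r, the receptor for the survival cytokine interleukin 7, was at 285, 123, 447 and 341 CPM against 631, 472, 638 and 493 CPM, and fell by 0.92 (SE 0.17, adjusted p = 0.00383). Both were lower in 4 of 4 libraries. Lef1 did not pass (log2 fold change -1.09, SE 0.29, adjusted p = 0.0634). It was at 106, 32.9, 66.0 and 45.9 CPM against 377, 277, 55.0 and 52.4 CPM, lower in both young libraries and in the aged choroid plexus but not in the aged meninges.

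Of 15 granule genes other than Gzmk, 12 were tested, and 1 rose, 1 fell and 10 did not pass, against 1.28% called over all genes, with a median log2 fold change of 0.04. Cst7, cystatin F, an inhibitor of granule cathepsins, rose from 114, 141, 231 and 225 CPM to 240, 271, 366 and 282 CPM (log2 fold change 0.58, SE 0.15, adjusted p = 0.0447, higher in 4 of 4 libraries), a call made in 1 of 16 alternative fits. Nkg7 was higher in 4 of 4 libraries, at 1904, 1917, 2918 and 2368 against 841, 1506, 2253 and 1847 CPM, but did not pass (0.46, SE 0.13, adjusted p = 0.110). Prf1, perforin, had an estimate of 0.14 (adjusted p = 0.914) and Gzmb, granzyme B, one of -0.42 (SE 0.23, adjusted p = 0.531), and neither passed. Gzmb had a UMI in 9.09, 7.69, 14.9 and 18.5% of Gzmk-positive cells, so no Gzmb UMI was detected in most of them at this depth.

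Gzma, granzyme A, fell by 1.78 on the log2 scale (SE 0.30, edgeR adjusted p = 0.00161). It was at 787, 98.7, 52.8 and 30.9 CPM in Gzmk-positive against 766, 418, 660 and 129 CPM in Gzmk-negative cells, lower in 3 of 4 libraries and level in the young meninges. Few cells made these sums: a Gzma UMI was in 6, 2, 7 and 9 Gzmk-positive cells and in 3, 5, 11 and 8 Gzmk-negative cells, and 1 cell of the young meninges held 74 of the 141 UMIs of the Gzmk-positive cells. In the young choroid plexus 1 of 2 cells held 9 of 12 UMIs. In the Gzmk-negative cells of the young meninges 1 cell held 121 of 175 UMIs. Without the cell with most UMIs in each library and gate, the Gzmk-positive levels were 384, 25.1, 18.9 and 19.4 CPM. The Gzmk-negative levels were then 243, 201, 474 and 91.5 CPM. On these values Gzma was higher in Gzmk-positive cells in the young meninges and lower in the other libraries. In the cells without a natural killer marker UMI the log2 fold change was -1.10 (SE 0.63, adjusted p = 0.599), and without the aged meninges it was -1.17 (SE 0.28, adjusted p = 0.0591). Without the young choroid plexus it was -1.71 (SE 0.40, adjusted p = 0.0949), and without the young meninges -2.84 (SE 0.20, adjusted p = 2.76e-18). In Cd8b1-positive cells without a gamma-delta marker UMI it was -0.89 (SE 0.50, adjusted p = 0.630).

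Among chemokines, Ccl5 was at 10364, 7214, 15286 and 10023 CPM in Gzmk-positive cells. Gzmk-negative cells had 3767, 5235, 12474 and 8803 CPM. It was higher in 4 of 4 libraries, with a log2 fold change of 0.50 (SE 0.16) that did not pass (adjusted p = 0.160). Ccl4, which attracts T cells and macrophages, fell by 1.14 on the log2 scale (SE 0.25, edgeR adjusted p = 0.0145), and this rested on the aged meninges, at 520 against 2399 CPM. There, 1 Gzmk-negative cell held 402 of 654 Ccl4 UMIs, and more Gzmk-positive than Gzmk-negative cells had a Ccl4 UMI, 45.2 against 27.2%. Without the aged meninges the log2 fold change of Ccl4 was -0.30 (SE 0.24, adjusted p = 0.808), and without the young choroid plexus it was -1.19 (SE 0.30, adjusted p = 0.133).

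All 4 chemokine receptors tested of 11 listed had positive estimates, with a median of 0.55. Cxcr3, a receptor for interferon-induced chemokines, was at 274, 173, 290 and 228 CPM against 78.8, 112, 246 and 193 CPM (log2 fold change 0.48, SE 0.17, adjusted p = 0.258). Cxcr6, a receptor of tissue-resident T cells, was at 430, 609, 528 and 508 CPM against 123, 360, 433 and 589 CPM, higher in 3 of 4 libraries (0.39, SE 0.18, adjusted p = 0.404). Cxcr6 was thus abundant in Gzmk-positive cells of every library, and did not pass the test against the comparison cells.

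Of 16 adhesion and egress genes listed, 13 were tested, 1 rose and 2 fell, the latter being Klf2 and S1pr1, beside 0.624% of all genes higher and 0.656% lower. Itgb1, the integrin beta 1 chain that pairs with Itga4 or Itga1, was at 704, 864, 398 and 669 CPM against 136, 422, 260 and 543 CPM. It was higher in 4 of 4 libraries by a log2 fold change of 0.85 (SE 0.18, edgeR adjusted p = 0.0115), though the gates overlapped between libraries. It was called in 6 of 16 alternative fits, with 0.54 (SE 0.14, adjusted p = 0.0276) without the young meninges and 0.33 (SE 0.19, adjusted p = 0.880) with gates set after thinning. Itga4 was also higher in 4 of 4 libraries and did not pass (0.49, SE 0.15, adjusted p = 0.141). The residency integrin Itgae was too low to be tested, at 5.58, 0, 11.3 and 42.7 CPM in Gzmk-positive cells.

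Inhibitory receptors were represented by 5 tested genes of 13 listed, of which Tigit alone passed, beside 0.624% of all genes higher. Tigit, which competes with a costimulatory receptor for nectin-type ligands, was at 156, 115, 160 and 154 CPM against 26.3, 41.4, 125 and 77.1 CPM. It rose in 4 of 4 libraries by a log2 fold change of 0.99 (SE 0.22, edgeR adjusted p = 0.0145), a call made in 7 of 15 alternative fits. Pdcd1, which encodes PD-1, was at 162, 156, 166 and 156 CPM against 52.6, 82.8, 132 and 94.0 CPM. Its gates did not overlap, yet its log2 fold change of 0.71 (SE 0.19) did not pass (adjusted p = 0.0632). Lag3 was too low to be tested.

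Among receptors and adaptors, Il10ra, the ligand-binding chain of the interleukin 10 receptor, was at 117, 41.1, 156 and 96.0 CPM against 17.5, 20.7, 69.7 and 58.6 CPM. It rose by a log2 fold change of 1.08 (SE 0.24, edgeR adjusted p = 0.0136), a call made in 7 of 15 alternative fits. Of 16 cytokine receptor subunits listed, 8 were tested and Il10ra alone passed, beside 0.624% of all genes higher. The other 7 estimates were negative, and the list median was -0.13. Sh2d1a, which encodes SAP, the signalling adaptor of SLAM family receptors, was at 246, 230, 243 and 241 CPM in Gzmk-positive and at 96.4, 74.5, 165 and 105 CPM in Gzmk-negative cells, without overlap. Its log2 fold change was 1.04 (SE 0.17, adjusted p = 0.00144), and it passed in 11 of 16 alternative fits. Of killer lectin-like receptors and cytokines, 4 of 12 and 3 of 14 were tested and none passed by edgeR, nor by DESeq2. Ifng stayed under the count filter, with a UMI in 12.1, 3.85, 17.3 and 7.63% of Gzmk-positive cells.

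**Figure D4:**
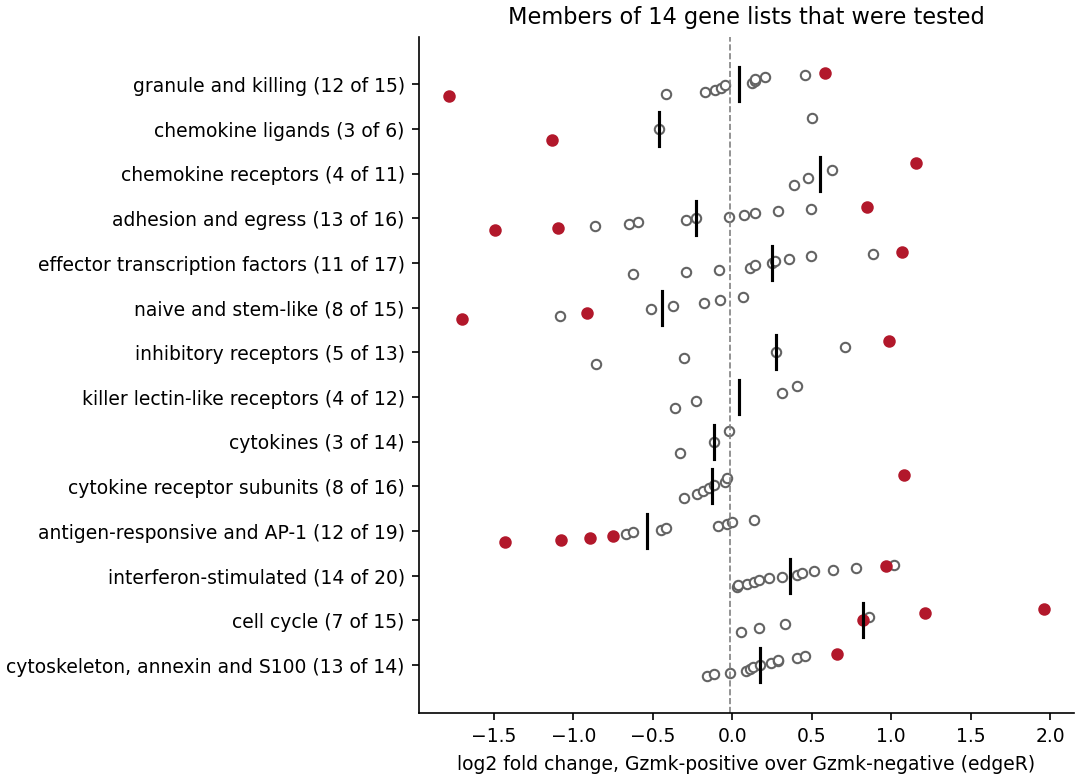
EdgeR log2 fold change (x axis) of each tested member of 14 gene lists (y axis, with members tested of members listed), red where the adjusted p was under 0.05. Black bars are list medians and the dashed line is the median of all 3203 genes, and no point of the interferon-stimulated list lies below 0.

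Immediate early and antigen-responsive genes had mostly negative estimates. Of 19 listed, 12 were tested, 4 fell and none rose, and 11 of 12 estimates were negative with a median of -0.54, against 0.656% of all genes lower. By library the list's median log2 ratio was -0.64, 0.07, -0.51 and -0.30, so that the young choroid plexus did not have the direction of the others. The 4 were Junb and Nr4a1, transcription factors of early activation, Dusp1, a phosphatase of MAP kinases, and Nfkbia, the inhibitor of NF-kappa-B. Their levels also differed between tissues: Junb was at 558, 74.0, 1076 and 117 CPM in Gzmk-positive and at 1156, 66.2, 1515 and 193 CPM in Gzmk-negative cells. Its log2 fold change was -0.75 (SE 0.15, edgeR adjusted p = 0.00841), lower in 3 of 4 libraries. Nr4a1 was at 0 in the Gzmk-positive cells of both choroid plexus libraries, where 3 UMIs would have given 24.7 and 3.20 CPM, against 0 and 15.4 CPM in the Gzmk-negative cells. In the meninges it was at 39.1 and 71.6 against 105 and 139 CPM, and 1 of 7 alternative fits made the call. Other genes that fell were Rgcc, a regulator of the cell cycle (44.7, 32.9, 37.7 and 25.6 against 223, 153, 62.4 and 57.0 CPM), and Ramp1, a subunit of the receptor for the neuropeptide CGRP (22.3, 32.9, 20.7 and 12.8 against 118, 57.9, 47.7 and 47.8 CPM). Their log2 fold changes were -1.53 (SE 0.26, adjusted p = 0.00167) for Rgcc and -1.71 (SE 0.32, adjusted p = 0.00387) for Ramp1, without overlap of the gates in either.

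All 14 tested interferon-stimulated genes of 20 listed had positive estimates, with a median of 0.36, but only Isg15, a ubiquitin-like protein induced by interferon, passed, beside 0.624% of all genes higher. It was at 117, 247, 307 and 100 CPM against 43.8, 57.9, 139 and 81.7 CPM (log2 fold change 0.97, SE 0.21, edgeR adjusted p = 0.0115, higher in 4 of 4 libraries). The 2 aged libraries differed, since the aged choroid plexus had the lowest Isg15 level of the Gzmk-positive cells and the aged meninges the highest. Over the tested members of the list, the median log2 ratio was 0.91, 0.45, 0.39 and 0.10 by library. The listed genes summed to a lower level in Gzmk-positive cells in the aged choroid plexus alone, at 3867 against 4386 CPM.

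Several genes of cell division were higher. Of 15 cell cycle genes listed, 7 were tested and all had positive estimates with a median of 0.82, and Birc5, Stmn1 and Hmgb2 rose, beside 0.624% of all genes higher and 1541 of 3203 estimates positive. Birc5, which encodes survivin of dividing cells, was at 72.6, 74.0, 47.1 and 84.2 CPM against 0, 12.4, 0 and 37.0 CPM. In the young libraries 1 cell held 10 of 13 and 1 cell 8 of 9 of these UMIs. The levels were also taken without the cell with most UMIs in each library and gate. The Gzmk-positive levels were then 19.9, 9.44, 26.9 and 63.9 CPM and the Gzmk-negative ones 0, 4.24, 0 and 18.8 CPM. These gates overlapped between libraries, though Gzmk-positive cells were higher in each library. The log2 fold change of Birc5 was 1.96 (SE 0.39, edgeR adjusted p = 0.00761), which depends on the model because 2 of the Gzmk-negative sums held none. The replication-dependent histone genes Hist1h2ap, Hist1h2ac and Hist1h2ae also rose, but their near-identical copies can share reads. The size of these changes depended on the cells counted. Hist1h2ap was at 1385, 2015, 582 and 1054 CPM against 43.8, 753, 44.0 and 570 CPM (adjusted p = 0.000448). Its log2 fold change was 0.28 (SE 0.64, adjusted p = 0.986) without Ccr7- or Lef1-positive cells and -1.11 (SE 0.75, adjusted p = 0.905) with gates set after thinning. Over the alternative fits the lowest estimate was 0.04 for Hmgb2 and 0.17 for Stmn1. Few cells carried this signal: in the young meninges 1 cell held 243 of 248 Hist1h2ap UMIs of the Gzmk-positive cells, and in the young choroid plexus 1 cell held 238 of 245. In the Gzmk-negative cells of the young choroid plexus 1 cell held 173 of 182. Without the cell with most UMIs in each library and gate, Hist1h2ap was at 33.2, 66.1, 278 and 746 CPM in Gzmk-positive cells. The Gzmk-negative cells were then at 31.0, 38.3, 29.8 and 347 CPM. A UMI of Mki67, Top2a or Birc5 was found in 21.2, 11.5, 8.93 and 9.64% of Gzmk-positive cells and in 3.08, 9.09, 1.09 and 8.21% of Gzmk-negative cells. After thinning these shares were 12.1, 3.85, 3.03 and 4.47% against 0, 3.17, 1.14 and 4.19%. The share was higher in Gzmk-positive cells in each library before thinning, by the least in the choroid plexus, and the Clopper-Pearson intervals of the 2 gates overlapped in every library.

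Of 14 genes of the cytoskeleton, annexin and S100 families, 13 were tested, and 1, Anxa2, a membrane-binding protein of activated cells, rose, beside 0.624% of all genes higher (313, 247, 309 and 222 against 105, 157, 202 and 163 CPM). Its log2 fold change was 0.66 (SE 0.16, edgeR adjusted p = 0.0249, higher in 4 of 4 libraries), called in 5 of 16 alternative fits, and the list median was 0.17. None of 86 tested ribosomal protein genes passed by edgeR, and 82 estimates were negative with a median of -0.20. Use of T cell receptor beta variable genes was spread over many genes, with an effective number of genes (inverse of the unbiased Simpson index, which can exceed the number of genes seen in few cells) of 15.5, 9.68, 16.1 and 18.2 in Gzmk-positive and 17.6, 17.1, 16.6 and 15.5 in Gzmk-negative cells. The most frequent gene of the Gzmk-positive cells was Trbv1, tied with Trbv12-1, in the young meninges (12.1% each, 4 of 33 cells), Trbv16 in the young choroid plexus (24.0%, 6 of 25 cells), Trbv12-2 in the aged meninges (10.1%) and Trbv1 in the aged choroid plexus (8.41%). The young choroid plexus value rests on 25 cells.

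The same contrast was then compared between ages, with the interaction of gate and age in edgeR and the tissues as the only replicates. It differed for 87 of 3203 genes (2.72%), the signed log2 fold change being more positive in the aged libraries for 66 (2.06%) and more negative for 21 (0.656%). The sign of this difference does not say in which age the gates were farther apart. Of the 66, 38 encode ribosomal proteins. Over all 86 ribosomal protein genes tested the median log2 ratios were -0.18 and -0.25 in the young and -0.04 and 0.03 in the aged libraries. For the 38, which the test itself chose, they were -0.34 and -0.31 against -0.03 and 0.04. Ly6c2, a surface protein of memory CD8 T cells, was higher in young Gzmk-positive cells (1435 and 674 against 372 and 488 CPM) and lower in aged ones (682 and 337 against 895 and 566 CPM). Its difference was -1.66 (SE 0.25, adjusted p = 3.62e-06). Lgals1, which encodes galectin 1, was at 1670 and 1653 against 556 and 823 CPM in the young and at 1229 and 1461 against 1284 and 1548 CPM in the aged libraries (difference -1.19, SE 0.18, adjusted p = 3.00e-06). Ccl5, Itgb1, Cxcr6, Hmgb2, Ahnak and Ly6a showed the same direction, with a larger gap between the gates in the young libraries. In the opposite direction, Lef1 was well below the comparison cells in young Gzmk-positive cells (106 and 32.9 against 377 and 277 CPM), and close to them in aged ones (66.0 and 45.9 against 55.0 and 52.4 CPM; difference 2.32, SE 0.42, adjusted p = 0.000104). A Lef1 UMI was found in 63.1, 51.5, 16.3 and 12.3% of the Gzmk-negative cells. The part of this share in the calls was not tested beyond the fit without such cells that follows. Without Ccr7- or Lef1-positive cells in both gates 12 genes differed, and DESeq2 called none on all cells (edgeR had 337 genes at an unadjusted p under 0.05).

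Aged and young Gzmk-positive cells were compared directly within each tissue. With 1 library per age and tissue a difference within a tissue has no test, so genes were named by size: a log2 ratio of 1 or more after 10 CPM were added, in the same direction in both tissues, with 20 or more UMIs in whichever library was higher. Of 1630 genes with enough UMIs, 20 were higher (1.23%) and 2 lower (0.123%) in aged cells. The 2 counts cannot be set against each other, because 20 UMIs stood for 112 and 165 CPM in the young but for 37.7 and 21.3 CPM in the deeper aged sums. With the same minimum for both ages, that of the shallower library of each tissue, 803 genes had enough UMIs and 1 was higher (Trgv2, a gamma-delta receptor gene, named after its values were seen) and 2 lower. An edgeR fit of the 4 sums with tissue as a covariate, and so with the tissues as the only replicates of each age, called none of 4302 genes (358 at an unadjusted p under 0.05, lowest adjusted p = 0.0938). The median log2 ratio over the 1630 genes was 0.13 in the meninges and 0.17 in choroid plexus cells, and the ratios are given without subtracting it. The higher genes included Maf, a transcription factor of interleukin 10 and follicular programmes, at 88.6 and 35.2 CPM in the aged libraries. In young meningeal cells Maf had 5.58 CPM (1 UMI), and it was at 0 in young choroid plexus cells, where the limit of 3 UMIs was 24.7 CPM. Tnfrsf4, the costimulatory receptor OX40, was at 82.9 and 45.9 CPM in aged against 11.2 and 0 CPM in young cells, although it was lower in Gzmk-positive than in Gzmk-negative cells of both aged libraries (176 and 134 CPM).

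Ikzf2, which encodes Helios, was at 54.7 and 99.2 CPM in aged against 16.8 and 8.23 CPM in young Gzmk-positive cells. Gzmb passed the rule of size as well, at 158 and 154 against 67.0 and 41.1 CPM, with log2 ratios of 1.13 and 1.68. The young sums came from 3 and 2 cells, with 8 of 12 and 3 of 5 UMIs in 1 cell, and the aged ones from 25 and 46 cells. Serpina3g, a protease inhibitor induced in memory T cells, was at 222 and 158 against 61.4 and 41.1 CPM. Casp1, the inflammatory caspase, was at 67.9 and 55.5 against 22.3 and 8.23 CPM, and Ifi208, an interferon-inducible gene, at 153 and 98.1 against 33.5 and 8.23 CPM. These rises were not particular to Gzmk-positive cells. In Gzmk-negative cells Serpina3g was at 198 and 116 CPM in aged against 21.9 and 12.4 CPM in young libraries. Maf, Tnfrsf4, Ikzf2, Casp1 and Ifi208 were also higher in the aged Gzmk-negative cells of both tissues. Gzmb was higher there in the meninges (187 against 136 CPM) and lower in the choroid plexus (129 against 199 CPM). The lower genes included Nme1, an enzyme of nucleotide metabolism, at 62.2 and 80.0 CPM in aged against 190 and 173 CPM in young cells, with log2 ratios of -1.47 and -1.02. Klf2, Tigit and Sh2d1a did not pass the rule of size. Their log2 ratios in the meninges and the choroid plexus were -1.22 and -0.68 for Klf2, 0.03 and 0.39 for Tigit and -0.01 and 0.06 for Sh2d1a. The count of higher genes moved with the settings, from 1 with the same minimum in both ages to 54 with at least 10 UMIs.

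**Figure D5:**
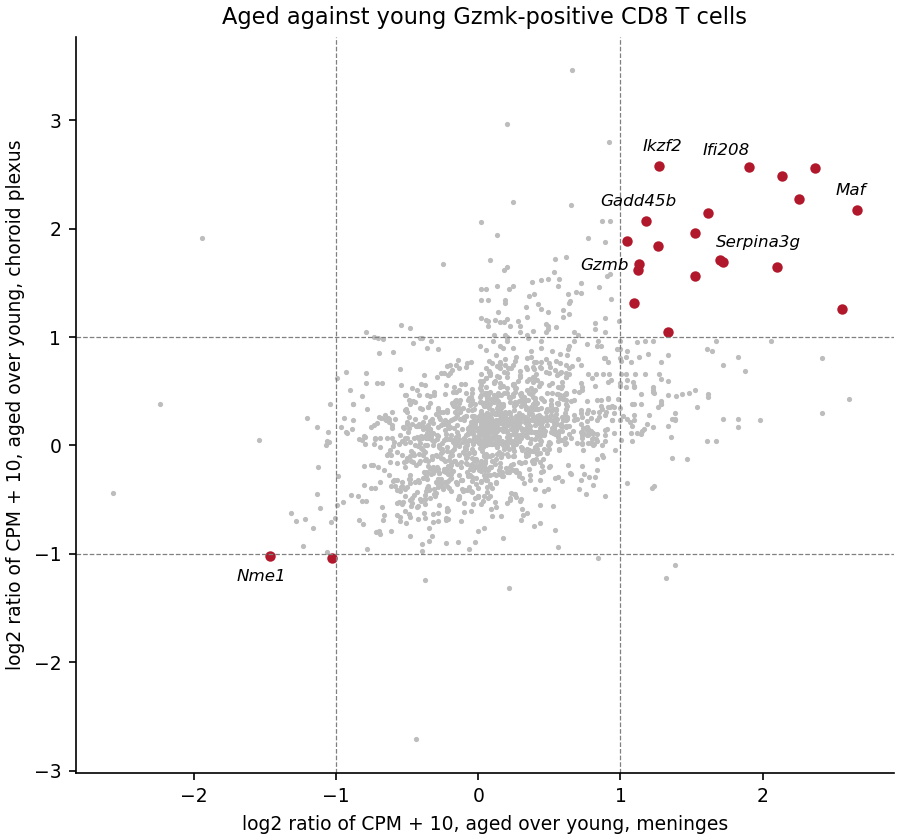
Log2 ratio of aged over young Gzmk-positive cells after adding 10 CPM in the meninges (x axis) and the choroid plexus (y axis) for 1630 genes. Each point is a gene and red points passed the rule of size in both tissues, 20 at the upper right and 2 at the lower left, with dashed lines at 1 and -1.

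The T cell receptor gamma genes Tcrg-C2, Tcrg-V1 and Trgv2 were among the 20, of which the last pair is named here after the values were seen. Tcrg-C2, a gamma chain constant gene that CD8 alpha-beta T cells can also transcribe, was at 49.0 and 112 CPM in aged against 0 and 41.1 CPM in young Gzmk-positive cells. A UMI of the gamma-delta marker list was found in 12.1, 15.4, 19.0 and 35.3% of Gzmk-positive and 6.15, 6.06, 20.7 and 32.3% of Gzmk-negative cells, while Trdc, the constant gene of the delta chain, was at 0, 0, 0 and 1.07 CPM in Gzmk-positive cells. The share was 19.0 against 20.7% in the aged meninges and 35.3 against 32.3% in the aged choroid plexus, so the gates differed little there. In Cd8b1-positive cells without a gamma-delta marker UMI, 16 genes were higher and 0 lower in aged cells by the rule of size.

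The aged tissues were compared within Gzmk-positive cells by the rule of size, with 1 library each and no test. Of 4584 genes with enough UMIs, 60 (1.31%) were higher in the meninges and 51 (1.11%) were higher in the choroid plexus. The widest ratio was that of the haemoglobin gene Hbb-bs (log2 -5.25, listed at 0 in the choroid plexus). Of 19 antigen-responsive and AP-1 genes, 15 had enough UMIs, of which 11 were higher in the meninges and 0 were higher in choroid plexus cells. Fos, a subunit of the AP-1 factor, was at 147 CPM in the aged meninges and 1.07 CPM in the aged choroid plexus, Dusp1 at 234 and 6.40 CPM, and Junb at 1076 and 117 CPM. The young libraries had the same order, with Fos at 162 and 8.23 CPM, Dusp1 at 123 and 8.23 CPM and Junb at 558 and 74.0 CPM in the meninges and the choroid plexus. Nr4a1, Nr4a2 and Tnfaip3, genes induced by antigen receptor signals, had log2 ratios of choroid plexus over meninges of -3.03, -2.91 and -2.46. In Gzmk-negative cells of the aged meninges and choroid plexus, Junb was at 1515 and 193 CPM and Dusp1 at 451 and 32.4 CPM. Nr4a1 was at 139 and 15.4 CPM there, so for these genes the order was not particular to Gzmk-positive cells.

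Of the chemokine ligands 3 of 5 and of the cytokines 2 of 5 were higher in the meninges, beside 1.31% of all genes with enough UMIs. Of the granule genes 0 of 12 were higher in either tissue, where 1.11% of all genes were higher in the choroid plexus. Ccl3 was at 92.4 CPM in the meninges and 18.1 CPM in the choroid plexus, Ccl4 at 520 and 154 CPM, and Ifng, interferon gamma, at 69.7 and 21.3 CPM. Ccl4 was also higher in the meninges in the aged Gzmk-negative cells, at 2399 and 157 CPM. In the other direction, Itgae, the integrin alpha E chain that holds T cells at epithelia, was at 42.7 CPM in the choroid plexus and 11.3 CPM in the meninges, with a log2 ratio of 1.31. Haemoglobin UMIs were seen in 22.0% of the Gzmk-positive cells of the aged meninges and in none of the aged choroid plexus. Tissue, library and preparation cannot be told apart in this comparison.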

How the data were processed

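Cells were profiled with droplet-based 5' single-cell RNA sequencing. The authors deposited 1 filtered matrix of raw UMI counts per library, made with Cell Ranger, 3.1.0 per the file headers and 5.1.0 with STAR and mm10 per the submitters' processing notes. Every column of values was tied to a sample. Cells with 200 to 7000 genes and at most 5% mitochondrial UMIs were kept (1035, 631, 1436 and 1106), as in the study. The study removed doublets with DoubletFinder, and whether before deposit is not stated in the sources used here. Scrublet marked 1.55, 3.49, 0 and 0.452% of cells, which were kept except in an alternative. Since it marked few cells of the aged libraries, the 5% of cells with the highest scores were removed in another alternative.

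UMIs were summed per library and gate and tested with edgeR 4.0.16 in R 4.3.3 (quasi-likelihood, TMM, filterByExpr, library as a block, Benjamini-Hochberg adjustment over all genes tested). SE is the absolute log2 fold change divided by the square root of F. Genes of the gate count in the library sizes and were not tested. The library was the block because both gates of a library share its mice and processing. The libraries stand as replicates, so p-values measure only the spread of the gate difference over these 4 libraries, which differ in age and tissue. DESeq2 1.42.0, filters, depth (cells thinned to 1000 UMIs), gates, cell subsets and left-out libraries were alternatives. Gates by age used the interaction term. Python 3.11.15 and scanpy 1.11.5 were used for reading and counting. On simulated counts of 3209 genes with the Gzmk design, 49 of 49 and 49 of 50 genes changed by a log2 of 2 and -2 were called. Of those changed by 1 and -1, 36 of 50 and 23 of 49 were called, and 5 of 3005 unchanged genes. The simulation gave every gene the same dispersion and every library the same gate difference. It held no genes whose UMIs sit mostly in 1 cell, so it cannot show how the test does on such genes.

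Named genes are those of the lists, the 15 largest changes in each direction called with the same sign in all 4 libraries, the 10 largest age ratios in each direction, the most frequent Trbv genes and markers. Ahnak, Lgals1 and other genes of the interaction are list members. The members and lists were chosen with earlier results of these data known. The comparison of the aged tissues was added after the values were seen. Gene positions are from GENCODE on GRCm38, where 30934 of 31053 gene identifiers matched. Hist1h2ap and haemoglobin genes have near-identical copies, and their counts are uncertain. Some genes of the lists and of the calls are counted but not reported here by name.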

Additional observations from a re-analysis of the deposited data

Results flagged for a closer look

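The interaction of gate and age in edgeR called 87 genes, so the difference between Gzmk-positive and Gzmk-negative cells differed between the aged and the young libraries for these genes. Among the genes of the fixed lists, the difference of log2 fold changes, aged minus young, was negative for Gzma (-2.26), Ly6c2 (-1.66), Ahnak (-1.35), Ly6a (-1.27), Lgals1 (-1.19), Hmgb2 (-1.09), Cxcr6 (-1.01), Itgb1 (-0.99) and Ccl5 (-0.56). It was positive for Il7r (1.07), Gzmb (1.75), Klrd1 (1.94), a subunit of natural killer receptors, and Lef1 (2.32). For the negative genes other than Gzma, the aged Gzmk-negative cells were higher than the young ones in both tissues: Ahnak was at 114 and 186 CPM in young and at 345 and 447 CPM in aged Gzmk-negative cells, but at 296 and 362 against 298 and 321 CPM in Gzmk-positive cells. In Gzmk-positive cells, Gzma (52.8 and 30.9 against 787 and 98.7 CPM), Ly6c2 (682 and 337 against 1435 and 674 CPM), Hmgb2, Itgb1 and Lgals1 were lower in the aged libraries of both tissues. For Gzma the choroid plexus difference rested on few cells, 1 young cell holding 9 of 12 UMIs. Without the cell with most UMIs in each library, the choroid plexus levels were 19.4 CPM in aged and 25.1 CPM in young Gzmk-positive cells. For Klrd1 the Gzmk-positive cells of the young choroid plexus stood apart, at 8.23 CPM against 140, 226 and 191 CPM in the others. Gzmb and Klrd1 are also natural killer cell genes. The difference of Gzmb had the opposite sign without cells holding a natural killer marker UMI. It also had the opposite sign in Cd8b1-positive cells without a gamma-delta marker UMI. The cause of the differences of Gzmb and Klrd1 was not tested.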

How the results depend on the processing

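For the 20 higher and 21 lower genes of the Gzmk contrast, the counts were 0 and 2 with DESeq2, 35 and 51 without a filter, 3 and 7 in Cd8b1-positive cells without a gamma-delta marker, 0 and 0 in thinned cells or with gates set after thinning, 0 and 2 without Ccr7- or Lef1-positive cells, and 2 and 9 without cells with a natural killer marker. Without the 5% highest Scrublet scores they were 11 and 17. Without the replicate block for the library they were 0 and 0, and all 41 genes had the same sign. Leaving out each library gave 4 to 36 higher and 7 to 44 lower genes. With gates set after thinning, Hist1h2ap (-1.11), Dut (-0.075) and Ccl4 (0.62) reversed, whose cause was not tested. For the 66 and 21 genes of the interaction with age, the counts were 0 and 0 with DESeq2, 5 and 7 in Cd8b1-positive cells, 20 and 11 in thinned cells, 8 and 4 without Ccr7- or Lef1-positive cells, 31 and 10 without natural killer marker cells, and 26 to 68 and 3 to 44 with a library left out. Hmgb2 reversed to 0.19 without Ccr7- or Lef1-positive cells, and Gzmb to -0.33 in Cd8b1-positive cells and -0.84 without natural killer marker cells. For age, the 20 higher and 2 lower genes became 50 and 2 with 1 CPM added, 3 and 0 with 50 CPM, 6 and 0 with at least 40 UMIs, 54 and 7 with at least 10 UMIs, 33 and 2 without Ccr7-positive cells, 15 and 0 in thinned cells, 16 and 0 in Cd8b1-positive cells, 1 and 2 with the same CPM minimum in both ages, and 0 and 0 by edgeR with tissue as a covariate. Gzmk-positive shares fell to 5.38, 6.10, 37.6 and 25.8% after thinning, and in young Ccr7-negative CD8 T cells they were 28.6% and 25%. The alternatives on Lef1 and natural killer markers, the age comparison without Ccr7-positive cells, its common minimum and its edgeR fit were chosen after seeing the data. The 33 and 26 young Gzmk-positive cells limit what can be seen in young mice, and thinned sums could test 19 of the 41 genes.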
